A study of Homo sapiens with 6 samples.

Results

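The mitotic kinesins described here are 10 motor genes of the spindle, chosen by name from the 57773 Ensembl gene IDs of the deposited table: KIF2C, KIF4A, KIF11, KIF14, KIF15, KIF18A, KIF18B, KIF20A, KIF20B and KIF23. Each matched 1 gene ID. The libraries came from RPE1, an immortalised human line derived from retinal pigment epithelium, grown with fetal bovine serum. In 3 libraries the cells had received 2.5 µM Nutlin-3 for 24 h, and in 3 they had received the vehicle DMSO for the same time. Nutlin-3 occupies the pocket of MDM2 that holds the transcription factor p53, and the series was made to find p53 target genes. The labels name a single cell line and no change to its genome. They do not say whether the triplicates were separate cultures, and every p-value below rests on the spread among these libraries alone, which may be technical.

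Kinesins are motors that burn ATP to walk along microtubules or to take their ends apart. The mitotic members push spindle poles apart, move and hold chromosomes, bundle the central spindle and carry cytokinesis factors to the midbody, and most are made mainly in G2 and mitosis. Many of their genes are known to be repressed through p21 and the DREAM complex after p53 is activated. DREAM and its activating counterpart with B-MYB and FOXM1 reach such promoters through the cell cycle genes homology region (CHR), a short element bound by the LIN54 subunit, which often lies downstream of CCAAT boxes bound by the factor NF-Y.

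Because the 10 genes moved together, their promoters were searched for these elements in RefSeq windows (GRCh38.p14) of 250 bases before to 50 bases after the annotated start. The motif TTTGAA, the standard CHR, was found on either strand in 8 of 10 members, against 15.2% of 35116 promoter windows of the same length and 12.4% of the 22199 protein-coding ones. CCAAT was found on either strand in 8 of 10, against 34.6% of all windows. In 5 members TTTGAA began 20 to 40 bases downstream of the beginning of a CCAAT match, against 0.681% of all windows. That spacing was chosen after the positions had been seen. It was 24 bases in KIF4A, 25 in KIF11, 23 in KIF14, 35 in KIF18A and 34 from the nearer CCAAT in KIF18B. KIF20A held no TTTGAA but a TTTAAA, a known CHR variant that reads the same on both strands, 26 bases after its nearer CCAAT, and TTTAAA occurs in 12.2% of windows. In KIF23 the elements were 9 bases apart, in KIF20B TTTGAA lay at positions 25 and 31 after the start, more than 100 bases from CCAAT, and in KIF15 TTTGAA stood without CCAAT. KIF2C held neither TTTGAA nor CCAAT, but a TTTAAA beginning 3 bases before the start. No match in a member overlapped another, and a match is a description of letters, not evidence of binding.

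The 6 promoters with a spaced pair are shown, 5 with TTTGAA and that of KIF20A with TTTAAA, and that of KIF15 for contrast. They are printed 5′ to 3′ on the gene's strand, from 100 bases before to 10 after the RefSeq start. Capitals mark the matches to the CHR, its variant and the CCAAT box, which on the opposite strand appear as the reverse complement. The promoters lie at chrX:70290004-70290113 (plus strand) for KIF4A, chr10:92593030-92593139 (plus) for KIF11, chr1:200620742-200620851 (minus) for KIF14, chr11:28108147-28108256 (minus) for KIF18A, chr17:44947764-44947873 (minus) for KIF18B, chr5:138179012-138179121 (plus) for KIF20A and chr3:44761694-44761803 (plus) for KIF15.
KIF4A: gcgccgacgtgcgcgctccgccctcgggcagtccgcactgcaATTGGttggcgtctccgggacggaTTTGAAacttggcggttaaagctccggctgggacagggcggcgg
KIF11: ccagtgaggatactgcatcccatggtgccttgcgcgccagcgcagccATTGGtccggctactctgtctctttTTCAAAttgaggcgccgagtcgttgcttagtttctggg
KIF14: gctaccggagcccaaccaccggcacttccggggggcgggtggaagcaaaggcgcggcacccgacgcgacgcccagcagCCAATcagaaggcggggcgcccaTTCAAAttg
KIF18A: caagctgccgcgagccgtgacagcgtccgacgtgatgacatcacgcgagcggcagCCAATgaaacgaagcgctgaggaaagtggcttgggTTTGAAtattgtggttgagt
KIF18B: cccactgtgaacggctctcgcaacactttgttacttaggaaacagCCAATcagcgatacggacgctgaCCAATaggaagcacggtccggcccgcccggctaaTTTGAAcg
KIF20A: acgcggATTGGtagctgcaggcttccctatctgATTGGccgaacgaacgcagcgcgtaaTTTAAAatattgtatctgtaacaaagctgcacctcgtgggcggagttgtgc
KIF15: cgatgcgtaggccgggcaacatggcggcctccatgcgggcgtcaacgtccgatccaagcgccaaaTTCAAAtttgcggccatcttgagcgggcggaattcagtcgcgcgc

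The deposited values are RPKM, reads per kilobase scaled to a library size set by the authors. Their kilobases are those of the full gene with its introns, so a gene with long introns has a low RPKM for its reads. The reads behind the values could be recovered, and totalled 28.4 to 41.0 M per library. The authors' sizes exceeded these totals in DMSO (1.031, 1.049 and 1.034 times) and fell short of them with Nutlin-3 (0.981, 0.969 and 0.962 times). Compared with scaling by the totals, the authors' sizes raise Nutlin-3 values against DMSO. All levels and both tests below use the authors' sizes. Small changes, such as those of GAPDH and KIF5B, and counts of called genes depend on that choice. Scaling by the totals was not tested. Recovered reads were turned into RPKM per merged exon length wherever levels are compared between genes. This takes every read as exonic, which could not be checked, and reads in introns would raise genes with long introns. The orders of level, ratios between genes and pool shares below rest on it. As a check of the treatment, CDKN1A, which encodes p21, had with Nutlin-3 7.24 times and MDM2 3.66 times its mean DMSO RPKM. GAPDH did not pass on RPKM (limma adjusted p = 0.0507) but rose by 0.12 on reads (limma voom adjusted p = 0.00298), and ACTB rose by 0.28 on the log2(RPKM + 0.5) scale. Of the markers of retinal pigment epithelium, RPE65, TYR and TTR were at or near 0 (mean DMSO RPKM 0.00192, 8.69e-05 and 0), while OTX2 stood at 3.18 and the keratin KRT18 at 40.6 RPKM in DMSO. These are examples from longer lists. Of 10 retinal pigment epithelium markers listed, only 1 averaged 0.5 RPKM or more. That marker was called lower with Nutlin-3 by limma, at -0.25 on the log2(RPKM + 0.5) scale. The 4 matched markers of blood, liver, glia and muscle had means of at most 0.0175 RPKM in either group.

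All 10 kinesins were lower in every Nutlin-3 library than in every DMSO library, a pattern shown by 27.4% of the genes tested on RPKM and 27.6% of those tested on recovered reads. Their Nutlin-3 means were 24.3% to 43.6% of the DMSO means. The tests, limma on RPKM and limma voom on reads, were each run over the whole table with Benjamini-Hochberg adjustment at 0.05. The main one, limma on log2(RPKM + 0.5), required an average of 0.5 RPKM over the 6 libraries and so left out KIF4A, KIF15 and KIF18A, whose spans are 131, 112 and 87.7 kb and whose means were 0.362, 0.302 and 0.318 RPKM. The 7 members it tested were all called lower, against 22.5% of 12212 genes, and 6 of them by at least 2-fold, against 1.74%. limma voom on the recovered reads tested all 10, since each had between 419 and 8077 reads in every library. It called 10 of 10 lower and at least 2-fold so, against 24.3% of 20728 genes called lower and 3.34% called at least 2-fold lower. The members' median log2 difference there was -1.70, beside 0.0044 over all genes tested. In bulk RNA, fewer cells in G2 and mitosis and less kinesin RNA per cell cannot be told apart.

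**Figure D1:**
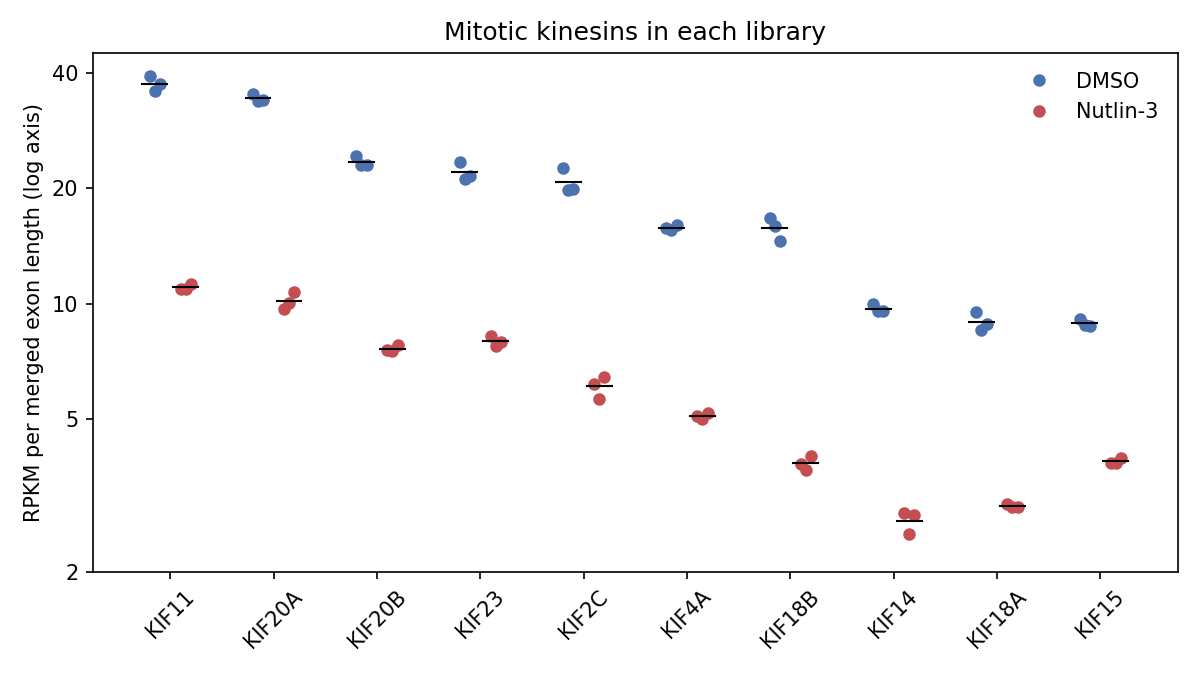
RPKM per merged exon length (log axis) of the 10 mitotic kinesins in each DMSO (blue) and Nutlin-3 (red) library, with a bar at each group mean, ordered by the DMSO mean. The 3 libraries of a group sit close together, and no gene's groups overlap: KIF11 goes from 37.6 to 11.0 and KIF15 from 8.89 to 3.88.

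The motors of spindle bipolarity, KIF11 and KIF15, were the members with the highest and the lowest level per exon length in DMSO. KIF11 (ENSG00000138160), also called Eg5, slides antiparallel microtubules and drives the poles apart. Its RPKM were 3.08, 2.81 and 2.93 in DMSO replicates 1 to 3 and 0.856, 0.856 and 0.879 in Nutlin-3 replicates 1 to 3, with no overlap and a nearly constant level in the treated libraries. The change was -1.33 on the log2(RPKM + 0.5) scale (SE 0.034, limma adjusted p = 3.77e-05). KIF15 (ENSG00000163808), which can keep the poles apart when KIF11 is blocked, had 0.433, 0.417 and 0.413 RPKM in DMSO and 0.182, 0.181 and 0.187 with Nutlin-3. It fell least of the 10, by 1.20 on the log2 scale of reads (SE 0.049, limma voom adjusted p = 1.16e-15), to 43.6% of its DMSO mean. Within a library KIF11 was thus 4.30, 4.08 and 4.28 times the level of KIF15 per exon length in DMSO, and 2.84, 2.85 and 2.84 times with Nutlin-3. The log2 ratio was 0.57 lower with Nutlin-3 (2-sided exact permutation p = 0.1, the smallest that 3 against 3 libraries allow).

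The second role is the control of microtubule ends and chromosome alignment. KIF2C (ENSG00000142945), or MCAK, removes tubulin from microtubule ends at centromeres and so corrects faulty attachments. It had 2.94, 2.58 and 2.60 RPKM in DMSO and 0.808, 0.735 and 0.841 with Nutlin-3, the widest spread among DMSO libraries of any member (SD 7.50% of the mean). The change was -1.31 on the log2(RPKM + 0.5) scale (SE 0.056, limma adjusted p = 6.25e-05). KIF18A (ENSG00000121621) dampens chromosome oscillations by capping kinetochore microtubules. Its RPKM were 0.507, 0.454 and 0.471 in DMSO and 0.160, 0.157 and 0.157 with Nutlin-3, and it fell by 1.60 on the log2 scale of reads (SE 0.059, limma voom adjusted p = 1.81e-16). KIF18B (ENSG00000186185), its relative on astral microtubules, had the lowest remaining share of the 10, although KIF20A changed more on the log2(RPKM + 0.5) scale. KIF18B had 3.39, 3.23 and 2.94 RPKM in DMSO and 0.772, 0.747 and 0.811 with Nutlin-3, that is 24.3% of the DMSO mean. Its change was -1.53 on the log2(RPKM + 0.5) scale (SE 0.051, limma adjusted p = 4.89e-05). On reads KIF18B fell by 2.04, and only 15 of the 20728 genes tested had a lower log2 difference.

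These relatives drew closer in level. KIF18A had 0.568, 0.533 and 0.608 times the level of KIF18B per exon length in DMSO and 0.786, 0.801 and 0.737 times with Nutlin-3, a log2 ratio higher by 0.44 (exact permutation p = 0.1). The ratio of KIF2C to KIF18A was 2.37, 2.32 and 2.26 in DMSO and 2.07, 1.91 and 2.18 with Nutlin-3, with a log2 difference of -0.18 and again no overlap (exact permutation p = 0.1).

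The third role is the central spindle and cytokinesis, with 5 members. KIF4A (ENSG00000090889), a chromosome-bound motor that also takes the bundler PRC1 to microtubule plus ends, had 0.546, 0.539 and 0.557 RPKM in DMSO and 0.177, 0.174 and 0.179 with Nutlin-3. It was the steadiest member in DMSO (SD 1.66% of the mean) and fell by 1.63 on the log2 scale of reads (SE 0.046, limma voom adjusted p = 1.99e-18). KIF14 (ENSG00000118193), which brings citron kinase to the midbody, had 1.05, 1.01 and 1.01 RPKM in DMSO and 0.298, 0.263 and 0.295 with Nutlin-3. Its change was -0.95 on log2(RPKM + 0.5) (SE 0.030, limma adjusted p = 4.78e-05) but -1.85 on reads, the pseudocount being large beside the RPKM of a gene of 69.2 kb. KIF4A stood at 1.58, 1.62 and 1.67 times the level of KIF14 per exon length in DMSO and at 1.797, 1.999 and 1.85 times with Nutlin-3 (log2 difference 0.21, exact permutation p = 0.1).

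KIF20A (ENSG00000112984), or MKLP2, moves the chromosomal passenger complex from anaphase chromosomes to the midzone. Its RPKM were 15.5, 14.9 and 14.99 in DMSO and 4.28, 4.43 and 4.72 with Nutlin-3. The change was -1.65 on the log2(RPKM + 0.5) scale (SE 0.041, limma adjusted p = 3.77e-05). On deposited RPKM it far exceeded KIF11, but its span is 8.997 kb, and per exon length it was second to KIF11 in both groups. KIF20B (ENSG00000138182), which acts at the midbody late in cytokinesis, had 2.28, 2.15 and 2.16 RPKM in DMSO and 0.708, 0.702 and 0.728 with Nutlin-3. Its change was -1.15 on the log2(RPKM + 0.5) scale (SE 0.028, limma adjusted p = 3.59e-05) and -1.62 on the log2 scale of reads. KIF23 (ENSG00000137807), or MKLP1, forms centralspindlin with RACGAP1. It had 4.499, 4.07 and 4.15 RPKM in DMSO and 1.59, 1.496 and 1.53 with Nutlin-3, that is 36.3% of the DMSO mean. The fall was 1.22 on the log2(RPKM + 0.5) scale (SE 0.042, limma adjusted p = 5.13e-05) and 1.46 on the log2 scale of reads. The level of KIF20A per exon length was 1.51, 1.60 and 1.58 times that of KIF23 in DMSO and 1.18, 1.29 and 1.35 times with Nutlin-3 (log2 difference -0.30, exact permutation p = 0.1). Against KIF20B it was 1.45, 1.47 and 1.48 times in DMSO and 1.28, 1.34 and 1.38 times with Nutlin-3 (log2 difference -0.14, exact permutation p = 0.1). These were 6 pairs taken by family or role, and after Benjamini-Hochberg adjustment each exact permutation p was again 0.1. None could pass 0.05 with 3 libraries a group, although the groups did not overlap in any pair. The size of these differences depends on the scale: with 0.5 RPKM added to both genes they were -0.90 for KIF11/KIF15, 0.96 for KIF18A/KIF18B, -0.74 for KIF2C/KIF18A, -0.50 for KIF20A/KIF20B, -0.44 for KIF20A/KIF23 and 0.32 for KIF4A/KIF14.

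**Figure D2:**
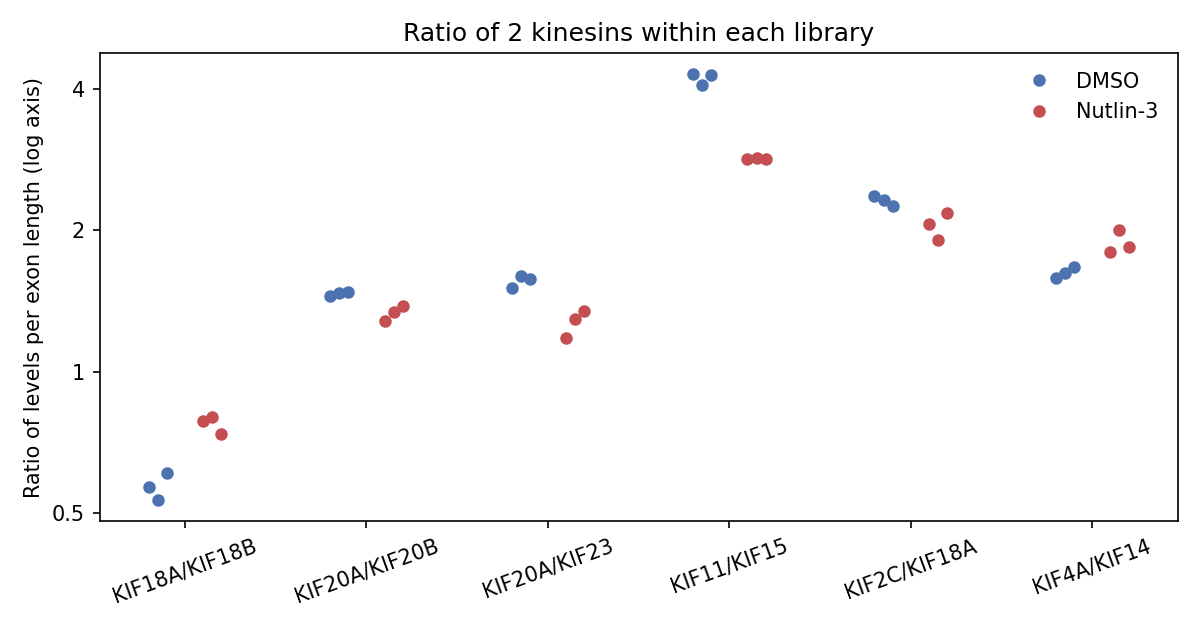
Ratio of the levels per exon length of 2 kinesins within each library (log axis), for the 6 pairs, DMSO in blue and Nutlin-3 in red. The KIF11/KIF15 ratio drops from a mean of 4.22 to 2.85 and the KIF18A/KIF18B ratio rises from 0.569 to 0.774, and the KIF20A/KIF20B ratio goes from 1.46 to 1.33.

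On reads, limma voom put the remaining level at 24.3% of DMSO for KIF18B (95% interval 22.3% to 26.5%), 27.8% for KIF14 (25.8% to 29.995%) and 29.2% for KIF2C (26.8% to 31.8%). KIF11 and KIF20A were at 29.4% and 29.5%, and KIF4A, KIF20B and KIF18A at 32.3%, 32.5% and 33.1%, with intervals that overlap their neighbours'. KIF23 followed at 36.2% (34.0% to 38.6%). KIF15 was alone at the top with 43.5% (40.6% to 46.7%), an interval that overlaps no other member's.

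**Figure D3:**
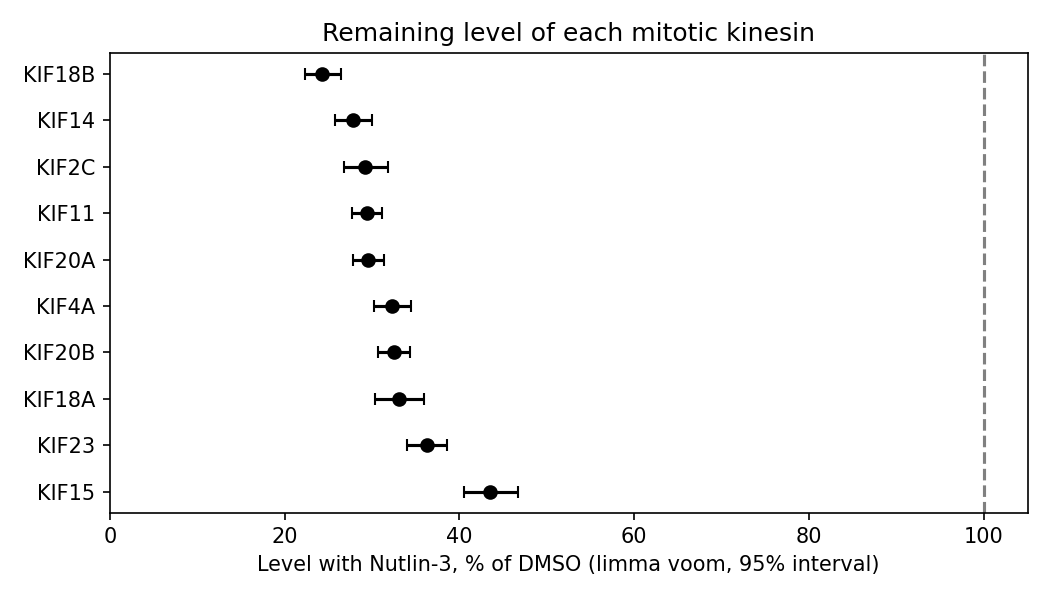
Level with Nutlin-3 as a percentage of the DMSO level (horizontal axis) for each mitotic kinesin, from limma voom on recovered reads, with 95% intervals and a dashed line at no change. The points run from 24.3% for KIF18B to 43.5% for KIF15, with most between 27.8% and 36.2%.

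Levels per exon length spanned 4.22-fold among the members in DMSO and 4.06-fold with Nutlin-3. In DMSO the order of means was KIF11 (37.6), KIF20A (34.4), KIF20B (23.5), KIF23 (22.0), KIF2C (20.8), KIF4A and KIF18B (both 15.8), KIF14 (9.71), KIF18A (8.96) and KIF15 (8.89). The libraries of KIF20B and KIF23, of KIF23 and KIF2C, of KIF4A and KIF18B, and of KIF18A and KIF15 overlapped in range. Within a library, however, KIF20B exceeded KIF23 and KIF23 exceeded KIF2C in 3 of 3, while KIF4A exceeded KIF18B in 1 of 3 and KIF18A exceeded KIF15 in 2 of 3, so those last 2 pairs of neighbours did not differ beyond their spread. With Nutlin-3 the order was KIF11 (11.0), KIF20A (10.2), KIF23 (7.998), KIF20B (7.63), KIF2C (6.09), KIF4A (5.09), KIF15 (3.88), KIF18B (3.84), KIF18A (2.97) and KIF14 (2.72). KIF15 and KIF18B overlapped there, with KIF15 the higher in 2 of 3 libraries, as did KIF23 and KIF20B, with KIF23 the higher in 3 of 3. DMSO replicate 1 was the highest DMSO library for 9 of 10 members, and every member's call was made without it too.

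The rest of the kinesin superfamily was set beside the 10. Of 6 other kinesins with a described mitotic role, 3 were tested on RPKM and all 3 were called lower, against 22.5% of all genes. KIFC1, a minus-end motor that focuses poles, fell to 28.4% of its DMSO mean. CENPE, which carries chromosomes to the spindle equator, fell to 31.8%, and the chromosome-bound KIF22 to 34.4%. On reads 5 were tested and 5 fell, against 24.3% of all genes. KIF2A, the close relative of KIF2C that also acts outside mitosis, fell by 0.38, to 77.0% of the DMSO mean (limma voom adjusted p = 5.61e-09). KIF4B, an intronless near-copy of KIF4A with 26 to 112 reads per library, fell by 1.42, and its reads cannot be separated with certainty from those of KIF4A. KIF2B was at 0 reads in every library.

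Kinesins of transport, cilia and other roles went both ways. Of 28 such genes 9 were tested on RPKM, with 4 called higher and 1 lower, against 29.1% and 22.5% of all genes, and a median of 0.11 beside 0.024 for all genes tested. The sign of that median turned in the larger sets, to -0.0092 over 22 such kinesins on reads and -0.020 over 17 per exon length. KIFC2 rose to 128%, KIF1C, a motor of vesicle and mRNA transport, to 124% and KIF3C of the heterotrimeric family to 117% of the DMSO mean. KIF5B, the conventional kinesin heavy chain, fell to 91.1% (limma adjusted p = 0.0372), a call kept without DMSO replicate 2 but lost without each of the other 5 libraries in turn (limma adjusted p from 0.0583 to 0.104), with no filter (0.0655) and with the replicate block (0.111). On reads, 7 of 22 rose and 5 fell, shares near the 26% and 24.3% of all genes tested. The 2 largest changes, chosen after their values were seen, were in KIF24 and KIF26B. KIF24, a centriole-bound kinesin that restrains cilium formation, fell by 1.57 (limma voom adjusted p = 4.23e-13). KIF26B rose by 1.30 from a mean of 0.00608 RPKM (limma voom adjusted p = 5.44e-07). At 32 to 77 reads per library KIF17 rose by 0.65 (limma voom adjusted p = 0.00786). KIF5C, at 44 to 96 reads, fell by 0.54 (limma voom adjusted p = 0.00523). Among 4 light chains and adaptors tested on RPKM, KLC4 and KLC1 rose, to 147% and 118%, against 29.1% of all genes called higher. On reads 3 of 6 rose and 1 fell, against 26% and 24.3% of all genes. The 1 that fell was KIFBP, to 91.9% of DMSO (limma voom adjusted p = 0.0168).

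**Figure D4:**
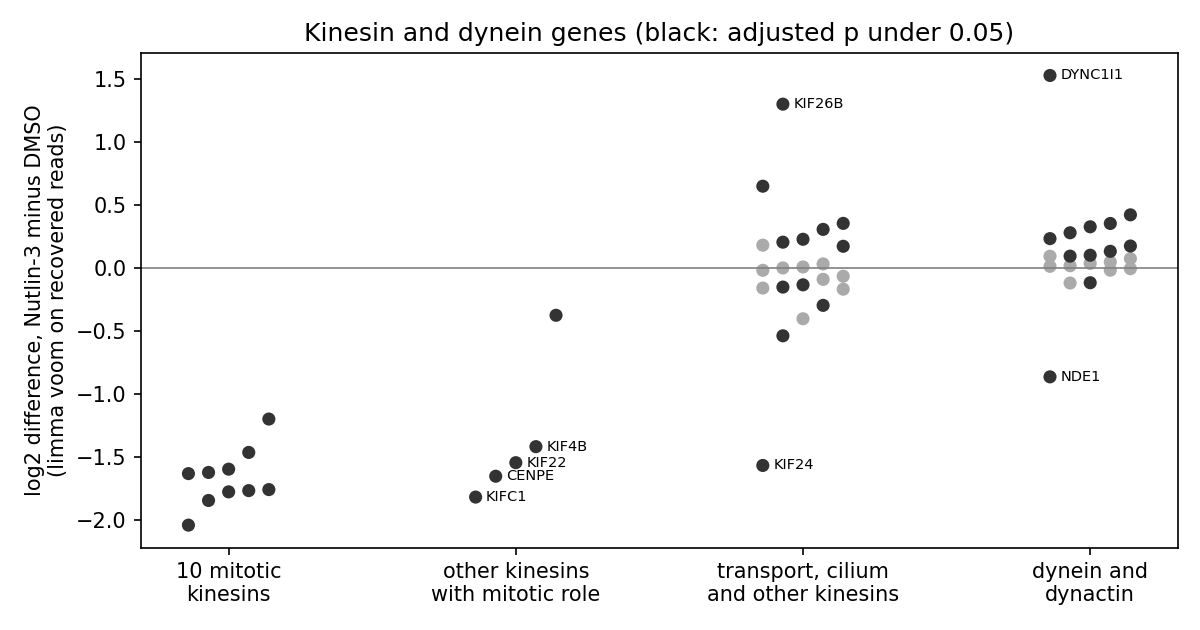
log2 difference, Nutlin-3 minus DMSO, from limma voom on recovered reads (vertical axis) for the 10 mitotic kinesins, 5 other kinesins with a mitotic role, 22 other kinesins and 21 dynein and dynactin genes, black where the adjusted p is under 0.05 and grey otherwise. The 10 members lie between -2.04 and -1.20, while most transport kinesins and dynein genes lie near 0. In these last groups KIF24 and NDE1 lie lowest and KIF26B and DYNC1I1 highest.

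The make-up of the kinesin RNA pool differed between the groups. Summed over 44 kinesin genes, RPKM per exon length was 442.2 ± 11.2 in DMSO and 261.9 ± 2.13 with Nutlin-3 (mean ± SD, n = 3). The 10 members contributed 45.3%, 44.4% and 44.1% of it in DMSO replicates 1 to 3 and 23.5%, 23.0% and 23.9% in Nutlin-3 replicates 1 to 3. The other 34 kinesins also summed lower, at 244.8 ± 4.15 in DMSO and 200.5 ± 1.01 with Nutlin-3. Among them KIFC1 went from 31.6 to 8.98, KIF22 from 19.1 to 6.56 and CENPE from 12.2 to 3.89, while KIF1C went up from 26.5 to 32.7. In DMSO KIF11 and KIF20A ranked 2 and 3 of all kinesins behind KIF5B, and with Nutlin-3 they ranked 8 and 9, behind KIF5B, KIF1C, KIF2A, KIFC3, KIF3B, KIF3C and KIF13A.

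Most partners and regulators of the mitotic kinesins on the spindle fell too. Of 24, 23 were tested on RPKM, 19 fell and 2 rose, against 22.5% and 29.1% of all genes, with a median of -1.18 beside 0.024. The largest falls on the log2(RPKM + 0.5) scale were in AURKB, the kinase that restrains KIF2C at centromeres, to 28.3% of the DMSO mean, CCNB1 (cyclin B1), to 32.5%, and PLK1, which binds KIF20A, to 31.7%. By remaining share the order differed. CDCA8 (28.9%), NUSAP1 (30.4%) and CIT (30.7%), named after their values were seen, lay below CCNB1 and PLK1, as did others. RACGAP1, the other subunit of centralspindlin, was at 36.1% beside 36.3% for KIF23, and PRC1, the cargo of KIF4A, at 32.3% beside 32.3% for KIF4A. TPX2, which targets KIF11 and KIF15 to the spindle, was at 36.1%. These 3 partners were picked for their binding to members and were also called lower. Other partners called lower fell less, among them INCENP to 41.2%, CKAP5 to 67.3% and MAPRE1 to 88.9%, also named after their values were seen. Whether a partner falls in step with its motor was not tested. NEK9 and NEK6, kinases upstream of KIF11, rose to 116% and 117%. Dynein and dynactin, the machinery of minus-end movement that opposes KIF11, held no gene called lower among 19 tested on RPKM by limma, against 22.5% of all genes, with 1 lower at an unadjusted p under 0.05. The 6 that rose, a share near the 29.1% of all genes, included DYNLT3 at 134%, DCTN1 at 128% and the heavy chain DYNC1H1 at 125%. On reads 10 of 21 rose and 2 fell, against 26% and 24.3% of all genes. The largest changes there, named after their values were seen, were in the dynein intermediate chain DYNC1I1, which rose by 1.53 from a mean of 0.00285 RPKM (limma voom adjusted p = 6.84e-07), and the dynein regulator NDE1, which fell by 0.86 (limma voom adjusted p = 1.71e-12).

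The transcription factors known to drive or repress these genes were measured in the same libraries. Of 19 factors of the E2F, RB, MuvB and B-MYB groups, 11 were tested on RPKM, 8 fell and none rose by limma, against 22.5% and 29.1% of all genes, with 0 higher at an unadjusted p under 0.05 and 0 of 19 called higher by limma voom. E2F1 fell to 29.3%, MYBL2 (B-MYB) to 26.2% and FOXM1 to 37.1% of the DMSO mean. On reads limma voom called 14 of 19 lower, against 24.3% of all genes. These included LIN9 at 32.4%, RBL1 at 38.3%, LIN54 at 48.3% and LIN52 at 51.6% of DMSO, while RBL2 and LIN37 were not called. These 6 were named after their values were seen. Among tested genes that are no members, the 5 whose course over the 6 libraries was nearest to the mean of the 7 tested members, by root mean square distance of log2(RPKM + 0.5) after subtracting the DMSO mean, were ARHGAP11A (0.0230), PBK (0.0274), FOXM1 (0.0291), DEPDC1 (0.0294) and TMPO (0.0335). The log2 differences of these 5 genes lay between -1.33 and -1.29. The 0.5 RPKM added shrinks the falls of low genes, so this nearness holds for that scale only. On reads FOXM1 fell by 1.43, beside a median log2 difference of -1.70 for the members.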

How the data were processed

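Poly(A) RNA of 6 RPE1 libraries was sequenced from stranded libraries, per the labels' protocols. CASAVA 1.8.2, TopHat2, edgeR and hg19 are named in the submitters' processing notes without a role for each. Neither counter, annotation nor strand setting is stated there. The deposited values are RPKM, made by the authors, 1 column per library matched by title. With the gene span of GENCODE 29, 89.0% of 80586 low values were whole reads within 0.01, against 32.3% with merged exon length. Reads came from the span for 27538 genes and from the smallest whole numbers with the observed ratios for 8825, and the latter may miss a common factor. For the members the lengths so found lay close to the GENCODE span.

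limma 3.58.1 in R 4.3.3 (lmFit, eBayes with trend) was run on log2(RPKM + 0.5), which understates changes of low genes, for genes averaging 0.5 RPKM or more, and limma voom on those averaging 10 reads or more, with the authors' library sizes. Pair ratios were tested by exact permutation (scipy 1.17.1). Members share at most 5.05% of exon length with another gene, all on the opposite strand. The members and lists were chosen with earlier results of these data known. Named genes are all members, up to 3 called genes per direction and list with the largest change, kinesins related to a member, 4 check genes and the 5 nearest profiles. Others are named for their binding to members, or as markers of the labelled tissue picked with their values known, or marked in the text as picked so.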

Additional observations from a re-analysis of the deposited data

How the results depend on the processing

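Under every alternative run that could test a member (other pseudocounts, filters, scalings, exon length, recovered reads, the replicate block and each library left out), 131 of 131 values kept direction and call, the largest adjusted p being 3.03e-03 with the replicate block. Deviations of same-numbered libraries correlated at -0.025, 0.0079 and 0.017. These values show no shared effect of replicate number, but cannot tell whether the libraries were made in pairs. With the replicate block 2199 genes were called lower and 2936 higher, against 2745 and 3551 without it. Recovered reads, which admit more genes, gave 5045 lower and 5379 higher, and RPKM per exon length gave 4329 lower. The size of a fall depends on the pseudocount, most for KIF14, from -0.65 at 1 to -1.54 at 0.1 RPKM. All pair ratios kept their direction in every setting run, but with 0.5 RPKM added to both genes the differences grew, most for KIF2C/KIF18A (-0.18 to -0.74), and none can pass with 3 libraries a group. Depth limits KIF4B and the kinesins at or near 0.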
